A study of Homo sapiens with 8 samples.

Results

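The region examined is the stretch of chromosome 1 from 113 to 122 Mb of the human genome build hg38, which holds NRAS and runs up to the centromere. Its members were all H3K27ac peaks of the deposited table whose start lies in that interval and all genes paired with them, 947 of 126470 peaks and 179 of 43869 genes. A total of 48 of these genes were expressed, out of 12701 expressed genes in the table, 79 were listed at 0 in all libraries and 52 had low values. The stretch was chosen by its peak and RNA values in erLor0, so its rise in that line is described here and not tested. The study followed the evolution of resistance to ALK inhibitors in H3122, a lung adenocarcinoma cell line driven by an EML4-ALK fusion. Values were available for 4 lines. Naive cells had seen no inhibitor, and erCriz0, erAlec0 and erLor0 are their derivatives with evolved resistance, raised under stepwise higher doses and maintained in crizotinib (erCriz0, 0.5 μM), alectinib (erAlec0, 2 μM) or lorlatinib (erLor0, 2 μM). All were grown as mixed populations, and RNA was taken 48 h after removal of the inhibitors. Each line gave 1 library for RNA-seq and 1 for H3K27ac ChIP-seq, so there is no replicate error for any difference below. Of the 8 samples of the series, the others were not analysed here.

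H3K27ac, an acetylated histone residue, marks active promoters and enhancers, and RNA-seq reads out the transcripts themselves. NRAS is one of the classical RAS proteins, small GTPases that switch on when growth factor receptors recruit the exchange factors SOS1 and SOS2 and that pass the signal to RAF, MEK and ERK kinases. RAS signalling lies downstream of ALK, and its reactivation is a known route around kinase inhibitors in lung cancer. All values are rlog values, log2 of normalised read counts in which features with few reads are drawn toward their mean, so changes of weak genes and peaks are understated. Changes are differences in rlog from naive cells, so the 3 comparisons share the naive library. A gene or peak was counted as up at a change of 1 or more, a 2-fold rise. Expressed genes reached log2 of 25 in at least 1 library. Counts of ChIP-seq and RNA-seq reads follow the number of DNA copies as well as activity per copy, and bulk values follow the number of cells with a change as well as the level per cell. These cannot be told apart in single bulk libraries, and no DNA measurement was analysed here.

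A few sequences mark the places on which the results turn. They were read from hg38, in lower case, with motif matches in capitals. The first is the NRAS promoter, at chr1:114716772-114716912 on the minus strand. Its capitals are matches to the GC box GGGCGG, a letter pattern added after the data had been seen. The others are the 300 bases with the most motif matches in the peak of LINC01525 (chr1:117267753-117268052) and in a peak of TBX15 (chr1:118961705-118962004), whose capitals mark AP-1 (TGANTCA), TEAD (GGAATG) and forkhead (TGTTTAC) patterns on either strand; their letters are those of the plus strand. In the LINC01525 peak no such window held more than 1 match, and the printed one is the middle of those that tied. The LINC01525 peak rose far beyond its surroundings in erLor0, and the TBX15 peak stayed far below them.
NRAS promoter: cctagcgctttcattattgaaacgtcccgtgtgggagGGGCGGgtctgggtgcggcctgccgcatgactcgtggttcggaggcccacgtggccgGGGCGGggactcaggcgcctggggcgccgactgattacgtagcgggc
LINC01525 peak: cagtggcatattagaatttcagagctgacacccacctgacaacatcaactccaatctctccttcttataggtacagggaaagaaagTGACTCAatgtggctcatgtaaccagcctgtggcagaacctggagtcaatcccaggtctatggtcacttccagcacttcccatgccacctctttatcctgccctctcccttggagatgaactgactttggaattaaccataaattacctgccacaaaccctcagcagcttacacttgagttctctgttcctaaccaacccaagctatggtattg
TBX15 peak: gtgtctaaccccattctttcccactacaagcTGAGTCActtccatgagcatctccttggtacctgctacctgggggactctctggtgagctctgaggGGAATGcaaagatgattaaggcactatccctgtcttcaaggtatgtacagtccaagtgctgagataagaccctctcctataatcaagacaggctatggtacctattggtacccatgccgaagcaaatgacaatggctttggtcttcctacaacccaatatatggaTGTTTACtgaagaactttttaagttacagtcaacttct

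Nearly the whole stretch carried more H3K27ac in erLor0 than in naive cells, and neither of the other resistant lines showed this. The median peak change was 1.36 in erLor0, with 677 of 947 peaks up, which is 71.5% beside 7.45% of all peaks of the table. The rest of chromosome 1 had a median of 0.03 in erLor0. Among the other lines, 21 peaks of the stretch were up in erCriz0, beside 7.00% of all peaks, and 43 in erAlec0, beside 14.1% of all peaks, and both lines had a median change of 0.00. No peak of the stretch fell by 1 or more in erLor0. The rise was seen at all naive levels, but the peak set was merged from calls in the 4 lines. A site weak in naive cells could thus enter the set through erLor0, where it is high. The following counts are therefore a description. From the start of the gain to the end of NOTCH2, 715 peaks were not at 0 in all libraries, and 713 of them were higher in erLor0 than in naive cells. Of these 715 peaks, 699 had their highest value of the 4 lines in erLor0, and their median change of 1.46 equals a 2.74-fold rise. Divided into 4 groups of rising naive level, these peaks had median changes of 1.5, 1.33, 1.39 and 1.75. Divided by length, the medians were 1.22, 1.33, 1.5 and 1.95, highest in the longest peaks. Peak lengths come from merged calls that include erLor0, so length and rise are not independent.

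**Figure D1:**
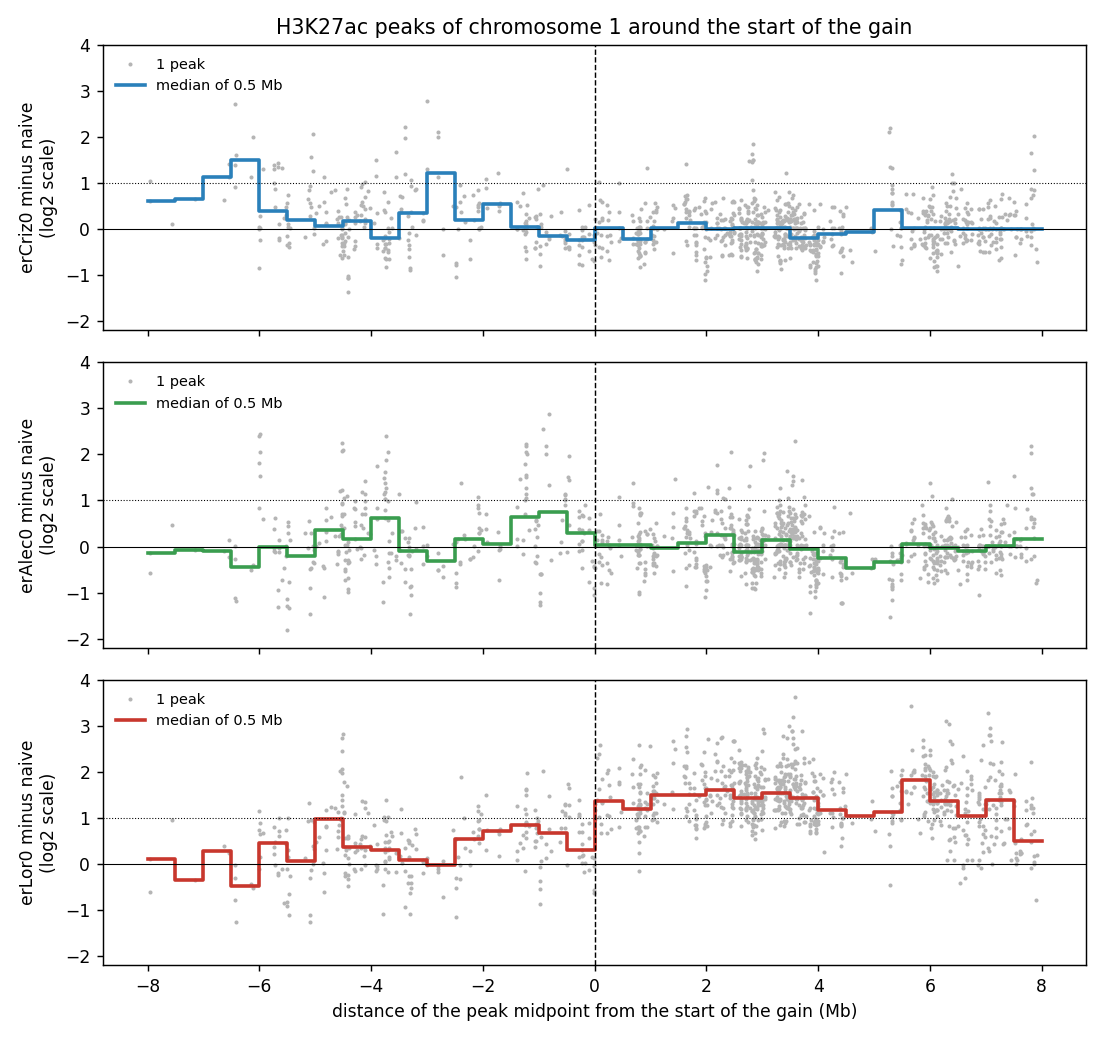
H3K27ac changes of single peaks (points) and medians of 0.5 Mb (lines) in erCriz0, erAlec0 and erLor0 minus naive, on the log2 scale, against the distance of the peak from the start of the gain in Mb. In erLor0 the median goes from 0.31 in the last 0.5 Mb before the start to 1.36 in the first 0.5 Mb after it, while erCriz0 and erAlec0 lie at 0.02 and 0.03 there. The dotted line marks a change of 1.

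The gain began near the end of MAGI3, a membrane-associated scaffold gene on the plus strand at chr1:113390515-113685923. Among 1218 peaks from 8 Mb before the stretch to its end, the split that best separated 2 levels of change in erLor0 had 307 peaks with a median of 0.39 on its left and 911 with a median of 1.37 on its right. It fell in the 6662 bp between the peaks chr1:113677040-113677308 and chr1:113683971-113684258, near 113.68 Mb. This gap holds exon 20 (chr1:113681198-113681336) and the first part of the last exon, 21 (chr1:113682897-113685923), of the canonical MAGI3 transcript. The first peak to its right overlaps the end of the coding part of that exon. Peaks close to the split differed sharply. The peak chr1:113674809-113676879, an intronic peak of MAGI3, had levels of 7.82 (naive), 7.62 (erCriz0), 6.76 (erAlec0) and 7.20 (erLor0). The last peak to the left had 3.91, 3.79, 3.01 and 3.34. Both were thus lower in erLor0 than in naive cells, with changes of −0.62 and −0.57, and lower still in erAlec0. The first peak to the right had 2.01 (naive), 2.04 (erCriz0), 1.53 (erAlec0) and 3.18 (erLor0), a change of 1.17 in erLor0. The 6 other ways to place the split kept it between 113.63 and 113.70 Mb, including one from RNA alone at gene midpoints. With only peaks of at least log2 of 15 in at least 1 library it lay at 113.696 Mb, past the end of MAGI3. The placement within the last exons is thus that of the main setting.

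The RNA levels of the genes around the split followed the same order. LRIG2, which encodes a membrane protein that modulates growth factor receptors, had 7.99 in naive and 8.11 in erLor0 cells. MAGI3 itself, almost all of which lies before the split, had 9.04 (naive), 9.17 (erCriz0), 8.80 (erAlec0) and 9.37 (erLor0), a change of 0.33. The third expressed gene before the split, ENSG00000232499, changed by −0.04. Farther left, outside the stretch, RHOC went from 9.71 to 9.87 and MOV10 from 9.35 to 9.36. Directly after the split, PHTF1 went from 7.46 to 8.72 and RSBN1 from 7.78 to 8.87, changes of 1.25 and 1.09. They were followed by AP4B1 with 0.64, DCLRE1B with 0.62 and HIPK1, which encodes a nuclear kinase, with 1.22. In erCriz0 these 5 genes changed by −0.74 to 0.35 and in erAlec0 by −0.92 to −0.08.

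The part of the stretch before the split was not level in erLor0 either. Its 36 peaks had a median change of 0.63 in erLor0, and 12 were up. The same peaks had a median of 0.36 in erAlec0, where 7 were up, and of −0.20 in erCriz0. In the 8 Mb before the stretch peak medians were 0.14 (erCriz0), 0.04 (erAlec0) and 0.37 (erLor0). From the start of these 8 Mb up to the split, 0 of 45 expressed genes were up in erLor0, near the 1.10% of all expressed genes. The last 3 of these genes lie inside the stretch and had RNA changes of at most 0.33 in erLor0. At the edge of the rule, the nearest 3 peaks outside had erLor0 changes of 0.76, 1.48 and 0.28 and the first 3 inside 0.48, 0 and 0.78. At the other end the last 3 peaks inside changed by 0.72, −0.79 and 0.19, and the nearest 3 outside, which follow after 21.8 Mb without peaks, by 0.00, 0 and 0.

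**Figure D2:**
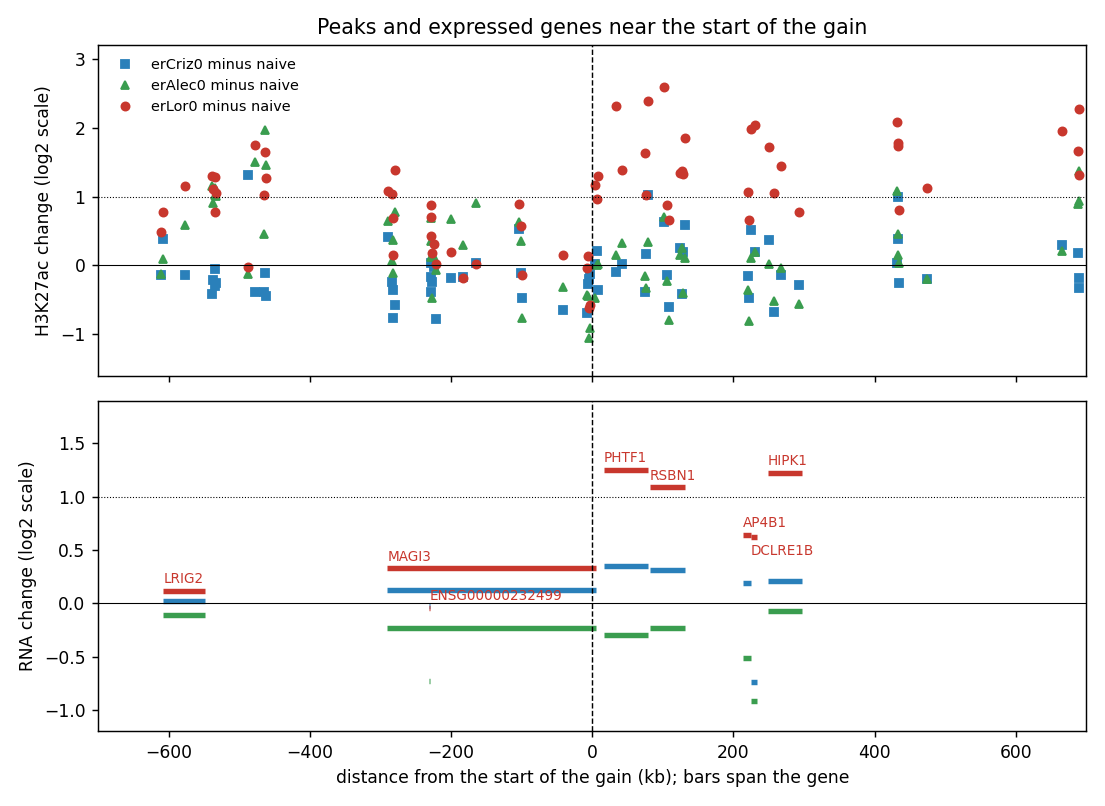
Changes against naive on the log2 scale within 700 kb of the start of the gain, for H3K27ac peaks (top, 1 point per peak and line) and for the RNA of expressed genes (bottom, 1 bar per gene and line, as long as the gene). Left of the dashed line erLor0 peaks lie on both sides of 0, and right of it they lie between 0.67 and 2.58, while the RNA of PHTF1, RSBN1 and HIPK1 exceeds 1.

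After the split, 28 of 45 expressed genes were up in erLor0, 16 had a change between 0 and 1 and 1 was lower. That compares with 1.10% of all expressed genes. The median over the 48 expressed genes of the stretch was 1.20, a 2.29-fold rise, beside −0.00 over all expressed genes. In erCriz0 TBX15 and NOTCH2 were up, 2 genes beside 2.65% of all expressed genes, and in erAlec0 0 were, beside 2.46%. Of the 45 genes, 42 had their highest level of the 4 lines in erLor0. The rise was larger in well expressed genes, on a scale that draws weak genes together. With a mean level of 9 or more, 15 of 16 genes were up with a median of 1.46, and under a mean of 6, 3 of 13 were up with a median of 0.70. The other 52 genes, with values but not expressed, changed by −0.13 to 0.82, and 0 of them were up. Values of genes that overlap or share sequence with another gene are less certain, since the strand setting of the counts is not given in the sources used here.

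NRAS (ENSG00000213281, chr1:114704469-114716771, minus strand) had 10.24 (naive), 10.40 (erCriz0), 10.20 (erAlec0) and 11.72 (erLor0). The first 3 lines lay between 10.20 and 10.40, and erLor0 stood 1.49 above naive, a 2.80-fold rise. The peak over its start, chr1:114714924-114717570, had 7.56, 7.62, 7.53 and 9.49 in the same order of lines. Its change of 1.93 was 0.58 above the regional level, the median of all further peaks at most 1 Mb away. All lines but erLor0 were again level. Of the 8 peaks paired with NRAS 7 were up in erLor0, and 0 lay 1 or more above the regional level. Its promoter window printed above, 141 bases long, holds 2 GC boxes. In the 250 bases before a RefSeq start, at least 1 was found in 42.6% of all promoters, in 72.0% of 25 promoters of expressed genes of the stretch that were up and in 71.4% of 14 promoters of the others.

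The named genes next to NRAS were up with it wherever they were expressed. SIKE1, a regulator of innate immune kinases, went from 9.91 to 11.29. Upstream in the sequence, BCAS2, a component of the spliceosome, went from 9.0 to 10.5 and TRIM33, a ubiquitin ligase and chromatin cofactor of TGF-β signalling, from 11.04 to 12.26. The start peak of BCAS2 rose by 1.34 and that of TRIM33 by 2.15, from 9.61 to 11.76. The muscle AMP deaminase AMPD1, between them and NRAS, stayed near the floor of the scale, with 0.22 in naive and 0.37 in erLor0 cells. DENND2C, which encodes an activator of RAB GTPases, was not expressed by the limit either, with 2.33 in naive and 2.99 in erLor0 cells. Its start peak chr1:114669035-114670734 nevertheless had 4.90 (naive), 5.16 (erCriz0), 5.27 (erAlec0) and 7.47 (erLor0). That change of 2.57 lay 1.24 above the regional level, the widest departure among these start peaks, the next being that of TRIM33 with 0.85.

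**Figure D3:**
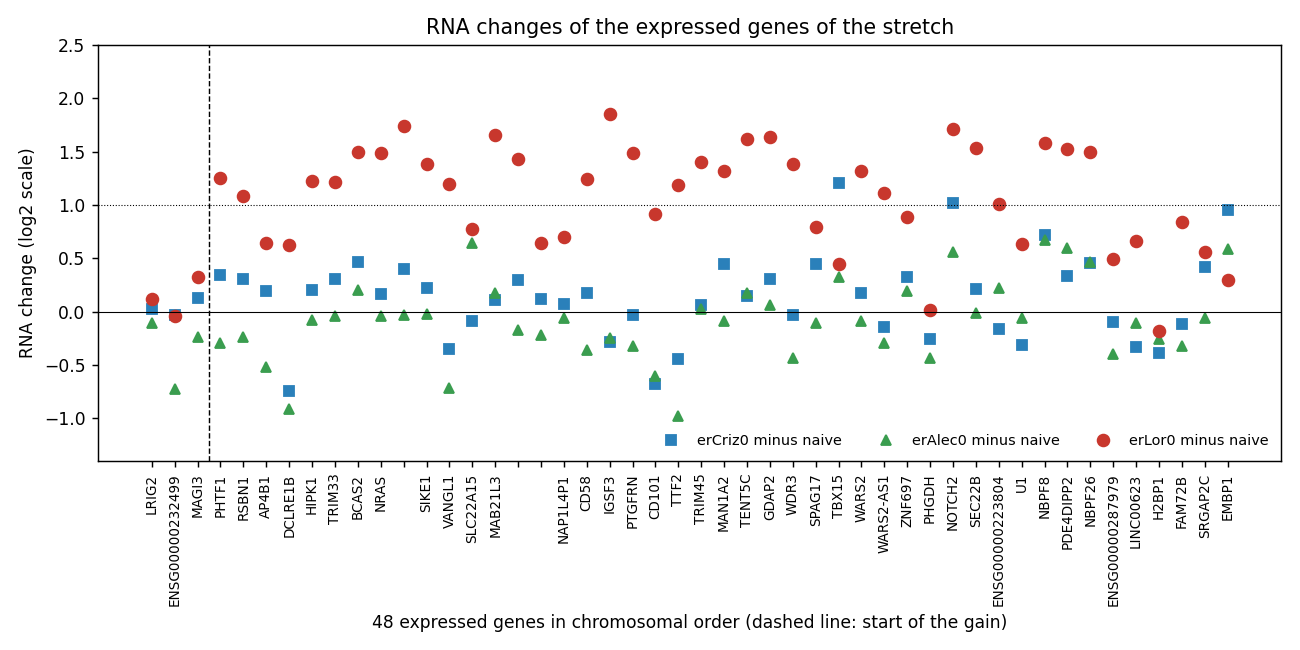
RNA changes of the 48 expressed genes of the stretch in chromosomal order, as erCriz0 (squares), erAlec0 (triangles) and erLor0 (circles) minus naive on the log2 scale, 1 library per line; not every point has a name. Of the 45 genes to the right of the dashed line, 28 circles lie at or above the dotted limit of 1, and PHGDH and H2BP1 lie at 0.01 and −0.18.

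The genes are given here by functional group, beside 28 of 48 expressed genes up in the whole stretch. The group counts lie near that share and show nothing particular to a function. Among surface proteins and immune ligands 6 of 9 expressed genes were up. As listed, this group also holds the kinase regulator SIKE1, which was up, and the scaffold MAGI3, which was not. IGSF3, an immunoglobulin superfamily protein, had the widest change, from 9.48 in naive, 9.20 in erCriz0 and 9.24 in erAlec0 to 11.34 in erLor0 cells, or 1.86. CD58, the ligand of the T cell adhesion molecule CD2, went from 7.81 to 9.05, whereas CD2 was listed at 0. The receptor NOTCH2 had 10.89 (naive), 11.90 (erCriz0), 11.44 (erAlec0) and 12.60 (erLor0), so it was also up in erCriz0, by 1.01. Its peak at the RefSeq start, chr1:120066335-120070755, rose by 2.60 in erLor0, 1.00 in erCriz0 and 1.03 in erAlec0. Read assignment in NOTCH2 is less certain. The 7 peaks at 0 in all libraries between the split and the end of NOTCH2 all lie within this gene. PTGFRN rose by 1.49, and VANGL1, a planar cell polarity protein, by 1.20.

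Among RNA, ribosome and DNA repair genes 4 of 5 were up. TENT5C, a poly(A) polymerase, rose by 1.62, WDR3, of ribosome assembly, by 1.39 and WARS2, the mitochondrial tryptophanyl-tRNA synthetase, by 1.32. DCLRE1B, a nuclease of telomere and crosslink repair, was the exception, with 7.08 (naive), 6.34 (erCriz0), 6.16 (erAlec0) and 7.70 (erLor0). Among ubiquitin, kinase and transcription genes 6 of 8 were up, TRIM45 by 1.40, HIPK1 by 1.22 and TTF2, a transcription termination factor, by 1.19. Among trafficking and glycosylation genes 2 of 3 were up, SEC22B, a SNARE between endoplasmic reticulum and Golgi, by 1.53 and the Golgi mannosidase MAN1A2 by 1.32. Of the metabolism and transport genes 2 of 4 were up, among them GDAP2, which went from 9.62 to 11.26. The secreted products REG4 and OLFML3 were not expressed. MAB21L3, in no group, rose by 1.66. The genes nearest to the limit were ENSG00000223804 with 1.01, RSBN1 with 1.09 and WARS2-AS1 with 1.11 above it, and CD101 with 0.92, ZNF697 with 0.89 and FAM72B with 0.84 below it. WARS2-AS1 shares a start peak with WARS2, and reads of overlapping genes may be shared too.

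PHGDH (chr1:119648411-119744226, plus strand) was the well expressed gene whose RNA did not follow. This enzyme of the first step of serine synthesis had 10.45 (naive), 10.19 (erCriz0), 10.02 (erAlec0) and 10.46 (erLor0), a change of 0.01. The 4 lines thus lay between 10.02 and 10.46. Its surroundings rose like the rest. Its 27 paired peaks had a median change of 1.53 in erLor0, and 22 of them were up. The peak chr1:119647164-119650116, over the first base of the long gene model in the table, had 7.21 (naive), 7.49 (erCriz0), 7.25 (erAlec0) and 9.33 (erLor0). That peak also covers the start of ZNF697, on the other side. The RefSeq start of PHGDH lies 63523 bp downstream of it, and there the picture differed. The nearest peak, chr1:119711948-119712605, had 4.80 (naive), 5.72 (erCriz0), 5.89 (erAlec0) and 5.68 (erLor0). Its erLor0 change of 0.88 was below the regional level of 1.26, and its changes in erCriz0 and erAlec0 were as large, 0.92 and 1.09. The next peak, chr1:119713143-119713517, had 4.23, 4.71, 4.72 and 4.78, a change of 0.56. Between both starts, chr1:119674706-119676824 had 5.09, 5.10, 5.01 and 7.56, a change of 2.47 that lay 1.28 above the regional level. Near the end of the gene, chr1:119742151-119746029 went from 6.42 to 8.16.

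Start peaks did not separate the genes whose RNA was up by 1 or more from most of those with a smaller rise. Of 28 expressed genes after the split with a RefSeq start, 27 had a start peak that was up in erLor0, and PHGDH was the exception. Where a gene had more than 1 RefSeq start, only the first one listed was used. The median start peak change was 1.84 over the 19 genes whose RNA was up and 1.98 over the 9 whose RNA was under that limit. Of these 9, PHGDH had an RNA change of 0.01, and the others rose by 0.56 to 0.92. AP4B1 and DCLRE1B share the peak chr1:113902504-113908608, which rose by 1.98, from 8.20 to 10.17, and is counted for both genes. SLC22A15, an organic ion transporter with a naive RNA level of 4.70, changed by 0.77 beside a start peak change of 2.13. CD101, ZNF697 and SPAG17 showed the same pattern, with start peak changes of 2.20, 2.12 and 1.96. TBX15, a T-box transcription factor, had 3.70 (naive), 4.91 (erCriz0), 4.02 (erAlec0) and 4.15 (erLor0). It was thus highest in erCriz0, and no peak lay over its start. H2BP1, a histone pseudogene, had 4.99 in naive and 4.81 in erLor0 cells.

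**Figure D4:**
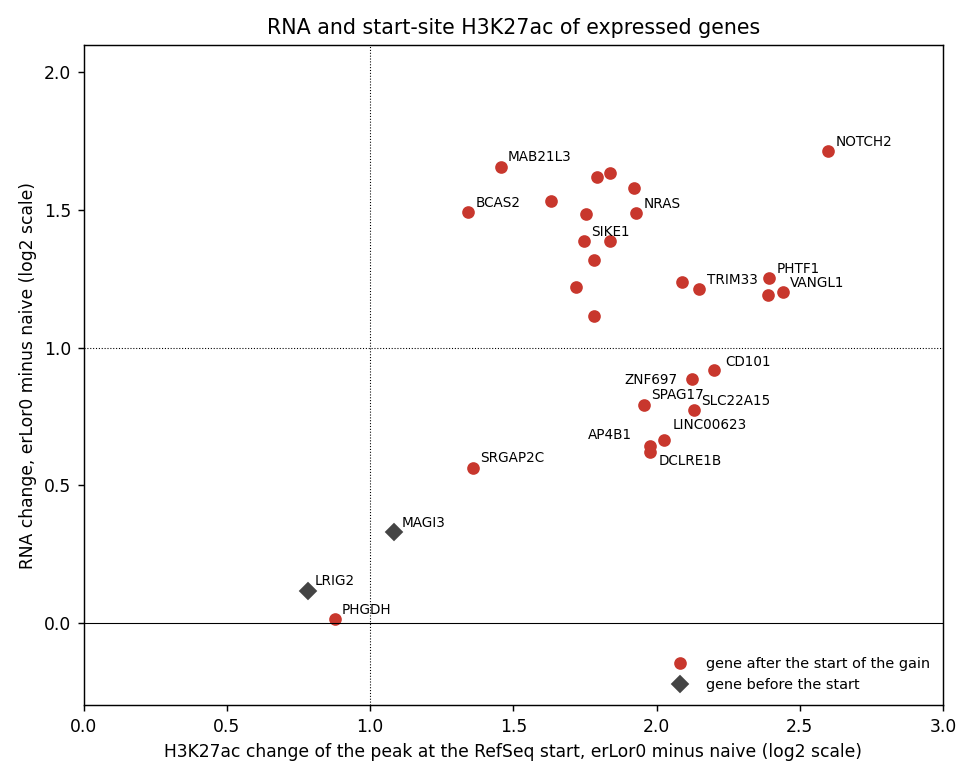
RNA change against the H3K27ac change of the peak at or nearest to the RefSeq start, both erLor0 minus naive on the log2 scale, for 30 expressed genes of the stretch (circles, after the start of the gain; diamonds, before it). PHGDH lies at 0.88 and 0.01, apart from the genes with RNA between 0.5 and 1, of which 7 have start peaks at 1.96 or more and SRGAP2C has 1.36.

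Above the broad gain, 64 of the 947 peaks lay at least 1 above the regional level in erLor0. This is close to the 6.73% of all peaks that did so around their own regional levels, so the number of such peaks is no feature of the stretch. Their median change was 2.62 in erLor0, 0.53 in erAlec0 and 0.27 in erCriz0. They were long peaks, with a median length of 3402 bp against 431 bp for the other 883, and 21 of them reached 5 kb. Their median naive level was also higher, 4.90 against 2.55. The rlog scale understates changes of weak peaks, and peak lengths come from merged calls that include erLor0. Length and level are therefore tied to the way these peaks were picked. Of the 64, 44 lay between the split and the end of NOTCH2 and 20 after NOTCH2. A base line of the mean of naive, erCriz0 and erAlec0 in place of naive left 35, and leaving out weak peaks, which changes both the regional level and the peaks counted (489), left 32.

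The widest rises between the split and the end of NOTCH2 were at LINC01525 and LINC01780. The peak chr1:117265171-117273685, over the start of the long noncoding RNA LINC01525, had 7.03 (naive), 6.78 (erCriz0), 9.32 (erAlec0) and 10.65 (erLor0). It thus rose by 3.63 in erLor0 and by 2.30 in erAlec0, and its erLor0 change lay 2.18 above the regional level. The peak chr1:119339031-119343309 near LINC01780 had 4.97, 4.57, 5.31 and 8.41. Its erLor0 change of 3.44, beside −0.40 in erCriz0 and 0.34 in erAlec0, lay 2.11 above the regional level. In NOTCH2, the intragenic peak chr1:119966423-119981831 had 8.06, 8.46, 8.89 and 11.16, and chr1:120022068-120025572 had 3.72, 3.91, 4.33 and 6.77. They rose by 3.10 and 3.05 in erLor0, 1.80 and 1.75 above the regional level, in a gene where read assignment is less certain.

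VTCN1, which encodes an inhibitory ligand of T cells, had 6 of its 32 peaks beyond the regional level. Its start peak chr1:117207108-117215463 had 7.52 (naive), 8.21 (erCriz0), 8.85 (erAlec0) and 10.40 (erLor0), and the upstream peak chr1:117228056-117234366 had 6.37, 7.10, 7.79 and 9.57. In both the levels of all resistant lines exceeded naive, erLor0 most. The RNA of VTCN1 had 3.28 in naive and 4.10 in erLor0 cells and did not reach the limit for expressed genes.

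Of the 10 peaks farthest above the regional level, 6 lie after NOTCH2, where sequences have near copies elsewhere. The farthest, chr1:120723162-120726242 over the starts of NBPF26 and NOTCH2NLR, had 5.35 (naive), 5.83 (erCriz0), 6.75 (erAlec0) and 8.64 (erLor0), 2.31 above the region. Another 4 of these 6, chr1:120727704-120737960, chr1:120742404-120752508, chr1:120753788-120759168 and chr1:120767036-120770856, follow directly and rose by 2.80, 2.96, 2.81 and 2.66. The regional level of 0.98 at the farthest peak takes in peaks at 0. The 3 peaks just past the limit, with 1.01, 1.02 and 1.02, and the 3 just under it, with 0.96, 0.95 and 0.95, show no gap between both sides.

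**Figure D5:**
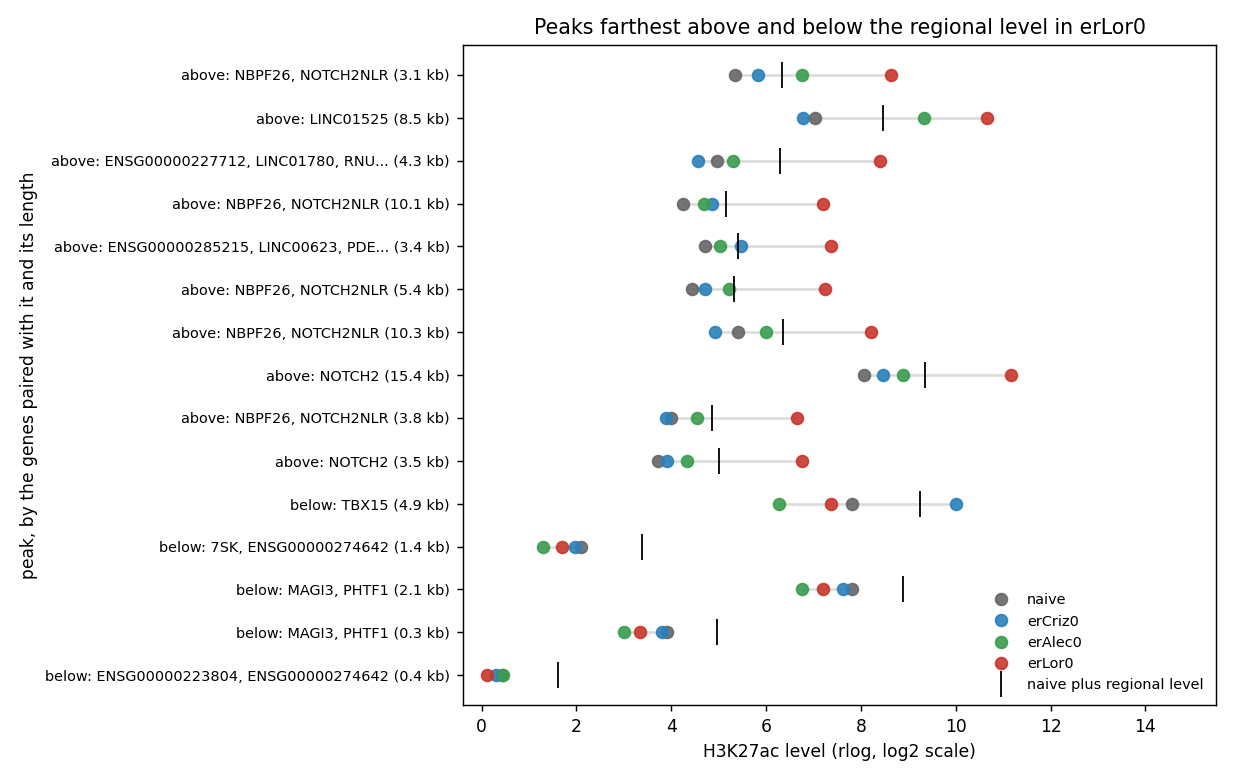
H3K27ac levels (rlog, log2 scale) in the 4 lines of the 10 peaks farthest above and the 5 farthest below the regional level in erLor0, named by their paired genes. Black ticks mark where the naive level plus the regional change lies; the erLor0 point is 1.75 to 2.31 to the right of the tick in the upper 10 and 1.5 to 1.88 to the left of it in the lower 5.

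Short motifs were searched in the letters of these peaks. In their middle 300 bases, 7.81% of the 64 held an AP-1 pattern, against 10.9% of the other peaks of the stretch and 8.99% of peaks on the rest of chromosome 1. TEAD patterns were in 17.2%, 16.4% and 15.6% of the same 3 sets, and forkhead patterns in 7.81%, 4.76% and 3.84%. The cyclic AMP response element TGACGTCA was rare throughout, in 0 of the 64, 0 of the 883 other peaks of the stretch and 0.23% of peaks on the rest of chromosome 1. Over whole peaks, AP-1 matches came to 0.28 per kb in the 64 and 0.36 per kb in the other peaks of the stretch. The LINC01525 peak held 4 AP-1 matches and the LINC01780 peak 1, while the TBX15 peak that stayed below the region held 5. The numbers are small and such a match is not a bound site.

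On the other side, 71 of the 947 peaks lay at least 1 below the regional level, near the 6.05% of all peaks that did so, and 46 of them were at 0 in all 4 libraries. Between the split and the end of NOTCH2, 8 such peaks were not at 0. The farthest, chr1:118958180-118963128 in TBX15, had 7.82 (naive), 10.02 (erCriz0), 6.28 (erAlec0) and 7.37 (erLor0). It was thus 2.19 higher in erCriz0, where TBX15 RNA was also highest, and lower in the other 2 resistant lines. In erLor0 its change of −0.45 lay 1.88 below the region. The other peak of that part that did not rise, chr1:114472445-114472818 in TRIM33, had 4.20 in naive and 4.06 in erLor0 cells. Next come chr1:120223858-120225225 after NOTCH2 and the pair in MAGI3 described above, which lie just before the split. The regional level of that pair, 1.06, takes in peaks on both sides of the split.

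After NOTCH2 the gain went on at well covered peaks, and it was smaller in the last Mb. Of 189 peaks 52 were at 0 in all libraries, against 7 of 722 between the split and the end of NOTCH2. The median over the other 137 peaks was 1.10, and over the 51 that reached log2 of 15 it was 1.61. Of 12 expressed genes 5 were up, ENSG00000223804, SEC22B, NBPF8, PDE4DIPP2 and NBPF26. NBPF8 had 7.01 (naive), 7.73 (erCriz0), 7.68 (erAlec0) and 8.59 (erLor0). This block holds families with near-identical copies, among them NBPF8, NBPF26, NOTCH2NLR, PDE4DIPP2, FAM72B, SRGAP2C and EMBP1, so the assignment of their reads is uncertain. Among peaks not at 0, the 113 between 120 and 121 Mb had a median erLor0 change of 1.29, and the 39 beyond 121 Mb had one of 0.65. For the last 8 of these it was 0.18. The median RNA change was 1.49 over the 9 expressed genes of the former Mb and 0.43 over the 4 of the latter, of which 0 were up. The former Mb, cut by midpoints, still takes in NOTCH2 itself and peaks at its start. Between 120.5 and 121 Mb, wholly after NOTCH2, the medians were 1.34 over 63 peaks and 1.08 over 4 expressed genes. The last peak, chr1:121586341-121587575, had 6.67 (naive), 5.96 (erCriz0), 5.93 (erAlec0) and 6.86 (erLor0), a change of 0.19. On the other side of the centromere, the first 5 Mb with peaks had a median change of −0.19 in erLor0 over peaks not at 0. There 0 of 39 expressed genes were up, near the 1.10% of all expressed genes.

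For comparison, 24 genes of the RAS pathway outside the stretch were taken from a list, and all were expressed. In each of the 3 resistant lines 0 of them were up and 0 down, which is near the share of all expressed genes, 1.10% up in erLor0, 2.65% in erCriz0 and 2.46% in erAlec0. Their median change in erLor0 was 0.12, with a range from −0.17 for HRAS to 0.92 for MRAS. The kinase MAP2K1 had 8.46 in naive and 8.58 in erLor0 cells.

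Markers of the labelled cell type were high. All 5 epithelial markers were expressed at 11.4 to 15.2 in every line and changed by 0.01 to 0.32 in erLor0. None of 4 leukocyte markers was expressed. PTPRC was listed at 0, and CD14 lay just under the limit of 4.64, at 4.31 to 4.53. Of the endothelial markers PECAM1 lay at −0.13 to −0.02, and CDH5 went from 4.10 in naive to 5.78 in erAlec0 and 5.64 in erLor0 cells. Its part in the results was not tested. The median level over expressed genes differed little, from 8.09 to 8.14.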

How the data were processed

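Transcript and H3K27ac levels in naive, erCriz0, erAlec0 and erLor0 cells, 1 library each per assay, came from a table with a row for every peak and gene at most 20 kb apart. The authors deposited rlog values on a log2 scale, made with DESeq2 from read counts. Their RNA reads were aligned to hg38 with HISAT2 and counted with HTSeq-count. Their ChIP-seq reads, 75 nt from single ends, were aligned with BWA, freed of duplicates and of mapping qualities under 25, and counted with featureCounts in merged MACS2 peaks (q under 0.05) after removal of blacklisted regions. No input subtraction is stated. The table also holds a correlation per pair with its p-value and adjusted p-value, deposited by the authors and not used. Read totals cannot be recovered, so the depth is unknown and values carry no counting error.

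Peaks were taken once by identifier, and positions were written from 1. The start of the gain was the split of ordered peaks with the lowest sum of absolute deviations around 2 medians, with at least 10 peaks on either side. For the regional level of a peak, the changes of all further peaks at most 1 Mb away were taken and their median was used. Gene symbols came from GENCODE release 44 (179 of 179 matched, 157 with identical coordinates), promoters and start sites from RefSeq (GRCh38.p14). No test was run, since each line has 1 library. The procedures were checked on simulated steps and peaks with independent noise. For the regional level this noise was smaller than the spread of the real changes. That check therefore does not show how well real peaks were told apart. The scripts ran under Python (3.11.15) with pandas (2.3.3) for tables, numpy (2.4.6) and scipy (1.17.1) for values and matplotlib (3.10.9) for plots.

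A few genes and sequences are not reported here. Genes named were NRAS and its neighbours, expressed genes that reached a change of 1 or did not exceed 0, those nearest to the limit and around the split, and 2 to 4 members of each role group. Peaks named were the 10 farthest above and 5 farthest below the regional level, those at gene starts and those nearest to the limit. The members and lists were chosen with earlier results of these data known. DENND2C and VTCN1 peaks, the peaks inside PHGDH and TRIM33, the MAP2K1 level, and the division at the end of NOTCH2 were chosen after their values were seen.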

Additional observations from a re-analysis of the deposited data

Results flagged for a closer look

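In 3 peaks of the stretch, 2 resistant lines lay on opposite sides of naive cells by at least 1 each. The peak chr1:118958180-118963128 in TBX15 changed by 2.19 in erCriz0 and −1.54 in erAlec0, so erAlec0 minus erCriz0 was −3.73. The peak chr1:118095816-118106577 in SPAG17 changed by −1.22 in erAlec0 and 1.00 in erLor0, a difference of 2.22. The peak chr1:119000159-119004378 near TBX15 changed by −1.15 in erAlec0 and 1.10 in erLor0, a difference of 2.25. With 1 library per line none of these differences was tested.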

How the results depend on the processing

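With 1 library per line no setting gives a replicate check, and the depth of the libraries is unknown. Under other settings only the median changes could reverse, and none did, in a stretch chosen by its values in erLor0. Of 48 values in all, 19 are given below, whose causes were not tested. The other 29 lay within 1.5 times of a reported count, within 0.25 Mb of the reported start, or, for medians and shares, within a 95% interval over the members. Members of 1 library are not replicates, so that interval is a yardstick and no sign of stability. Centring on the median of all peaks gave a median peak change of 1.46 and 76.2% of peaks up, quantile normalization 1.43 and 74.4%, and peaks of at least log2 of 15 gave 1.61 and 84.0%. The share up was 76.3% with the mean of 3 lines as base line and 76.3% without peaks at 0. With limits of log2 of 1.5 and of 2 it was 86.0% and 14.4%. The median RNA change was 0.66 over 74 genes with a value above 0 in some library, which adds weak genes, and 0 genes reached a limit of 2. Peaks beyond the regional level numbered 32 among peaks of at least log2 of 15, 35 with the mean of 3 lines as base line and 13 at a limit of 1.5. Peaks below it numbered 30 with a window of 0.5 Mb, 109 against the median of the whole stretch, 20 among peaks of at least log2 of 15 and 5 at a limit of 1.5. The start of the gain lay between 113.63 and 113.70 Mb in all 6 alternatives. No paired analysis was possible because each line has 1 library.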
